A study of Mus musculus with 8 samples.

Results

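The 7 genes described here are Dnmt1, Dnmt3a, Dnmt3b, Uhrf1, Tet1, Tet2 and Tet3. The Dnmt and Tet genes encode the enzymes that write and erase methyl groups on cytosine in mouse DNA, and Uhrf1 encodes a factor that recruits DNMT1. All are called members below. The members were chosen by name from a table of 52997 gene symbols, and all 7 were found there. All 7 also had enough counts to be tested, as did 11490 symbols in all. CD4+ T cells were sorted from the liver of C57BL/6 mice that lack Aire, the thymic regulator of self-antigen expression, and that carry a green fluorescent reporter of Foxp3. All cells were live, CD45+, TCRb+, CD4+ and negative for the Foxp3 reporter, and the samples differ by age (5 or 10 days) and by surface PD-1, an inhibitory receptor of activated T cells. Each of the 4 groups has 2 libraries, numbered 2 and 3 at 5 days and 1 and 2 at 10 days, which makes 8 in all. Aire-sufficient mice were not analysed here. Nothing in the labels ties a library to an animal, so every p-value reflects only how far these libraries scatter, and some of that scatter may be technical.

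DNA methylation in mammals sits mostly on CpG dinucleotides and is carried through cell division by a maintenance machinery. UHRF1 recognises the half-methylated CpG left behind a replication fork and recruits DNMT1, which copies the mark onto the new strand. DNMT3A and DNMT3B place methyl groups on unmethylated DNA, and in T cells DNMT3A is known for silencing genes as effector cells differentiate. TET1, TET2 and TET3 oxidise methylcytosine, which leads to its loss by repair or by dilution at replication. TET1 and TET3 carry a CXXC zinc finger that binds CpG-rich DNA, which TET2 lacks.

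Library totals ran from 1473216 to 3019551 counts. Pdcd1, which encodes PD-1, had 1 to 5 counts in PD-1- and 564 to 1953 in PD-1+ libraries, and Cd4 had 1101 to 4279 counts in every library. Foxp3 had 10 to 32 counts in PD-1- and 0 to 2 in PD-1+ libraries. Both 5-day libraries numbered 3 had Y-linked transcripts (672 and 601 counts), and the other 6 had none, so at 5 days sex follows the replicate number and all 10-day libraries are female. Values below are in CPM, the count scaled to a common library size after TMM scaling (a correction for library composition). "Called" means that edgeR's quasi-likelihood test gave p under 0.05 after Benjamini-Hochberg adjustment over all 11490 genes. A fold change with ± is a log2 difference with its standard error.

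The members whose transcripts were higher in PD-1+ cells share a short promoter sequence with some genes of DNA replication. In the 300-base windows of RefSeq (GRCm38.p6), from 250 bases before to 50 after each annotated start, the words TTTCGCGC and TTTGGCGC, 2 forms of the E2F consensus, were searched on both strands. Dnmt1 and Uhrf1 had a match in 1 of their windows each, and Dnmt3a, Dnmt3b, Tet1, Tet2 and Tet3 had none. Of all 32851 windows, 0.813% held a match, against 28.0% of the 25 windows of DNA replication genes. Both words contain CpG, and the windows compared were not matched for their number of CpG. By gene, 0.929% of 27025 genes had a match, as did 1 of 15 mitosis genes and 1 of 11 partners of maintenance methylation. Of 23 genes of DNA replication found in the table, 7 had a match. Cdt1 is 1 of these 7, and its transcript was not called between the populations over both ages (0.44 ± 0.18, edgeR adjusted p = 0.0689). E2F factors are known for driving genes of S phase, and a match is a description of the letters, not of binding. The stretches below show the matches of both members beside those of 3 replication genes. Each is 30 bases, 5′ to 3′ along the gene, with the matching word or its reverse complement in capitals. In Mcm5 and Mcm6 a match of the other word, on the opposite strand, overlaps the one shown.

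Uhrf1: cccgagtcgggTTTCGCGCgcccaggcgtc
Dnmt1: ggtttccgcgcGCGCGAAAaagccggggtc
Mcm5: gcgccaagaacTTTCGCGCcaaaacgtcca
Mcm6: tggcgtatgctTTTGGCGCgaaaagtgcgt
Pola1: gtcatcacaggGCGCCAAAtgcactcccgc

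The Uhrf1 stretch lies at chr17:56304117-56304146 on the plus strand, inside the Uhrf1 gene but in no annotated exon. The Dnmt1 stretch, at chr9:20952824-20952853 on the minus strand, touches an annotated Dnmt1 exon, and Dnmt1 has a further match after its start, for 2 in that window. The others lie at chr8:75109345-75109374 (Mcm5, plus), chr1:128359797-128359826 (Mcm6, minus) and chrX:93632275-93632304 (Pola1, minus), all outside GENCODE genes. The number of CpG in the windows of the members varied widely. The windows with a match, a word that itself contains CpG, held 33 CpG each in Dnmt1 and Uhrf1, while the other windows of Dnmt1 held 12 and 2 and the other of Uhrf1 held 12. The windows of Dnmt3a held 46, 47 and 18, and that of Tet2 held 57. The single windows of Dnmt3b, Tet3 and Tet1 held 30, 22 and 17, against a median of 7 over all windows.

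PD-1+ cells had more Dnmt1 and Uhrf1 transcript and less Tet1 and Tet3 transcript than PD-1- cells at both ages. Uhrf1 was 3.14-fold higher and Dnmt1 1.88-fold higher over both ages, while Tet1 was 4.31-fold lower and Tet3 2.31-fold lower. Dnmt3a, Dnmt3b and Tet2 were not called. Thus 4 of 7 members were called, 2 higher and 2 lower, where 41.4% of all tested genes were called (21.9% higher and 19.6% lower), so the share called is not far from that of all genes. The median log2 difference was 0.26 over the members and -0.012 over all tested genes. The libraries of the populations did not overlap for the same 4 members, as for 17.2% (higher) and 17.5% (lower) of all genes.

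**Figure D1:**
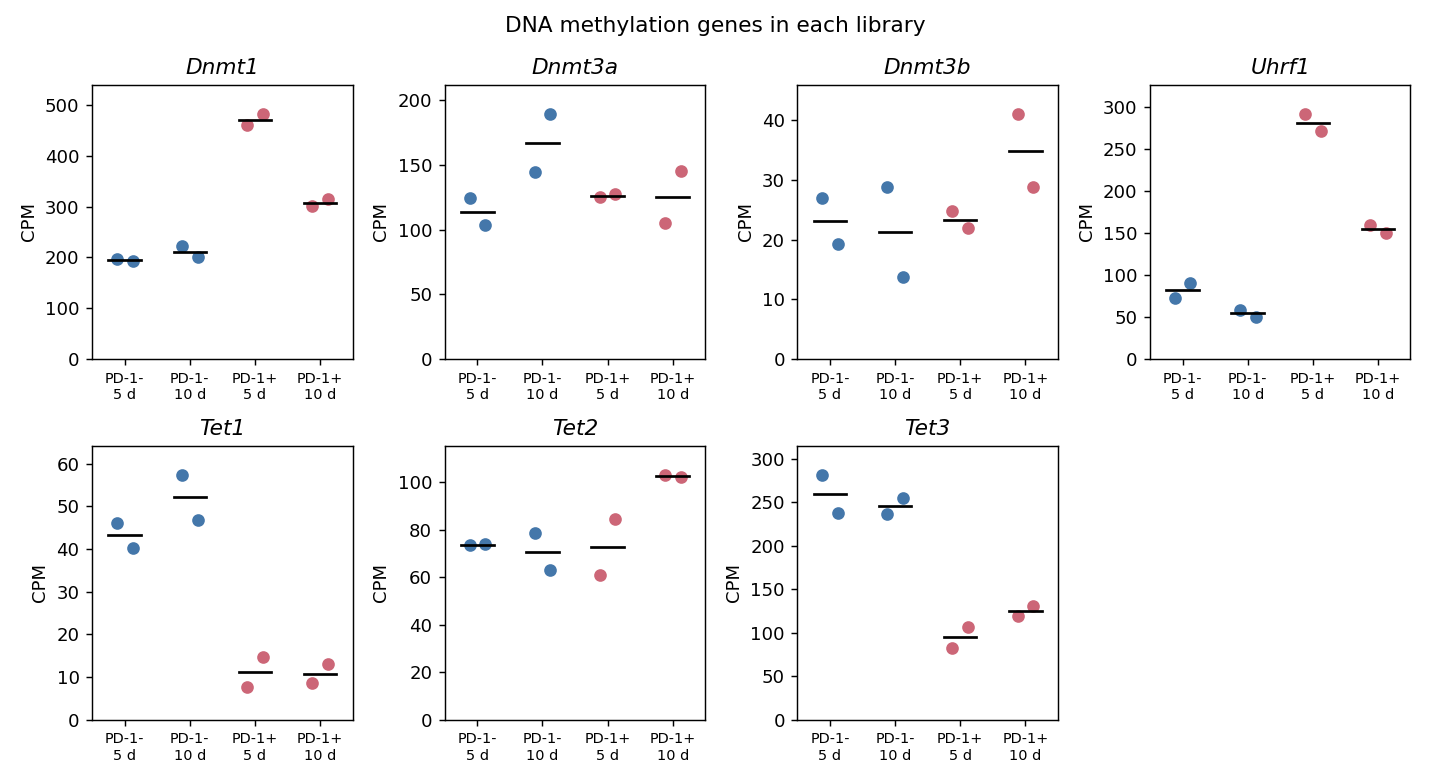
CPM of each member (y axis, linear from 0, a scale per panel) in the 4 groups (x axis); points are libraries, 2 per group, and bars are group means. Dnmt1 and Uhrf1 points of PD-1+ cells lie above all PD-1- points, Tet1 and Tet3 points lie below them, and the other panels overlap.

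Uhrf1 was at 73.2 and 90.9 CPM in the 5-day and 58.6 and 50.1 CPM in the 10-day PD-1- libraries, in the order of replicate number. In PD-1+ libraries it was at 292 and 272 CPM at 5 days and 160.3 and 150.4 CPM at 10 days. Every PD-1+ library was above every PD-1- library, and both 5-day PD-1+ libraries were the highest. The difference was 1.65 ± 0.14 over both ages (edgeR adjusted p = 3.79e-07), 1.79 ± 0.18 at 5 days (edgeR adjusted p = 9.54e-07) and 1.504 ± 0.18 at 10 days (edgeR adjusted p = 7.51e-06). The gene lies on chromosome 17 from 56303321 to 56323486, plus strand (GENCODE M21, GRCm38).

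Dnmt1, the maintenance methyltransferase itself, was at 196 and 192 CPM at 5 days and 222 and 200.3 CPM at 10 days in PD-1- cells. In PD-1+ cells it was at 461 and 482 CPM at 5 days and 302 and 314 CPM at 10 days. The PD-1- libraries spanned a narrow range, and the PD-1+ libraries separated by age. Dnmt1 differed by 1.28 ± 0.14 at 5 days (edgeR adjusted p = 4.05e-06) and by 0.54 ± 0.14 at 10 days (edgeR adjusted p = 0.00841). Without PD-1- 10-day replicate 2, the 10-day difference of Dnmt1 was 0.47 and was not called. The difference at 10 days minus that at 5 days was -0.74 ± 0.20, which edgeR did not call (edgeR adjusted p = 0.069) and DESeq2 did (-0.78, DESeq2 adjusted p = 0.0372). With the replicate number as a block, edgeR called it too (-0.74, edgeR adjusted p = 0.0448). Dnmt1 lies on chromosome 9 from 20907209 to 20959888, minus strand.

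Tet1 had the largest fold change of the members. It was at 46.0 and 40.3 CPM at 5 days and 57.3 and 46.8 CPM at 10 days in PD-1- cells. In PD-1+ cells it was at 7.72 and 14.8 CPM at 5 days and 8.55 and 13.0 CPM at 10 days. These PD-1+ values rest on 15 to 37 counts per library, so counting error is a sizeable part of their spread, and all 4 are below every PD-1- library. The log2 difference of Tet1 was -2.11 ± 0.25 over both ages (edgeR adjusted p = 1.27e-05), -1.93 ± 0.36 at 5 days and -2.27 ± 0.34 at 10 days (edgeR adjusted p = 0.000513 and 9.3e-05). The gene lies on chromosome 10 from 62804570 to 62908996, minus strand.

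Tet3 had the highest level per length of the Tet genes in PD-1- cells. Its PD-1- libraries were at 281 and 238 CPM at 5 days and 236 and 254 CPM at 10 days. PD-1+ libraries were at 82.9 and 106 CPM at 5 days and 119.7 and 131 CPM at 10 days. All PD-1+ libraries were below all PD-1- libraries. Tet3 differed by -1.21 ± 0.15 over both ages (edgeR adjusted p = 1.46e-05), -1.46 ± 0.17 at 5 days and -0.97 ± 0.17 at 10 days (edgeR adjusted p = 7.27e-06 and 0.000354). Tet3 lies on chromosome 6 from 83362373 to 83459084, minus strand, and a transcript model on the same strand inside it, 5430434F05Rik, had 7 to 35 counts per library but shares no exon base with it.

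Tet2, whose loss is frequent in human T cell lymphoma, did not follow its relatives. It was at 73.6 and 73.8 CPM at 5 days and 78.4 and 63.1 CPM at 10 days in PD-1- cells. In PD-1+ cells it was at 60.7 and 84.5 CPM at 5 days and 103 and 102 CPM at 10 days. The populations overlap at 5 days and do not at 10 days, where 33.5% of all genes were higher without overlap. The difference was 0.26 ± 0.17 over both ages (edgeR adjusted p = 0.253), -0.019 ± 0.22 at 5 days and 0.52 ± 0.21 at 10 days (edgeR adjusted p = 0.959 and 0.0765). Tet2 is on chromosome 3 from 133463679 to 133545139, minus strand.

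The de novo methyltransferases were not called in any comparison of all 8 libraries. Dnmt3a was at 124 and 103 CPM at 5 days and 144 and 189 CPM at 10 days in PD-1- cells. In PD-1+ cells Dnmt3a was at 125 and 127 CPM at 5 days and 105 and 145 CPM at 10 days. The ranges overlap, and the highest Dnmt3a value is PD-1- 10-day replicate 2, the library with the smallest total. The difference was -0.14 ± 0.17 over both ages (edgeR adjusted p = 0.549), 0.14 ± 0.20 at 5 days and -0.41 ± 0.20 at 10 days (edgeR adjusted p = 0.614 and 0.133). With 1 library left out the 10-day difference of Dnmt3a ranged from -0.65 (without PD-1+ 10-day replicate 2) to -0.19 (without PD-1+ 10-day replicate 1), and only the former was called.

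Dnmt3b had the lowest level per length of the methyltransferases, and was at 26.9 and 19.3 CPM (5 days) and 28.8 and 13.7 CPM (10 days) in PD-1- cells. PD-1+ cells had 24.7 and 21.96 CPM of Dnmt3b at 5 days and 41.0 and 28.8 CPM at 10 days. These values come from 21 to 115 counts per library, and the populations overlap. The difference was 0.34 ± 0.27 over both ages (edgeR adjusted p = 0.339), and 0.66 ± 0.36 at 10 days (edgeR adjusted p = 0.182). With 1 library left out the 10-day difference of Dnmt3b ranged from 0.28 (without PD-1- 10-day replicate 2) to 1.35 (without PD-1- 10-day replicate 1), and only the latter was called. Dnmt3a lies on chromosome 12 from 3806007 to 3914443 and Dnmt3b on chromosome 2 from 153649450 to 153687730, both on the plus strand. An antisense transcript that shares 133 exon bases with Dnmt3a, Dnmt3aos, had 0 to 3 counts per library.

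**Figure D2:**
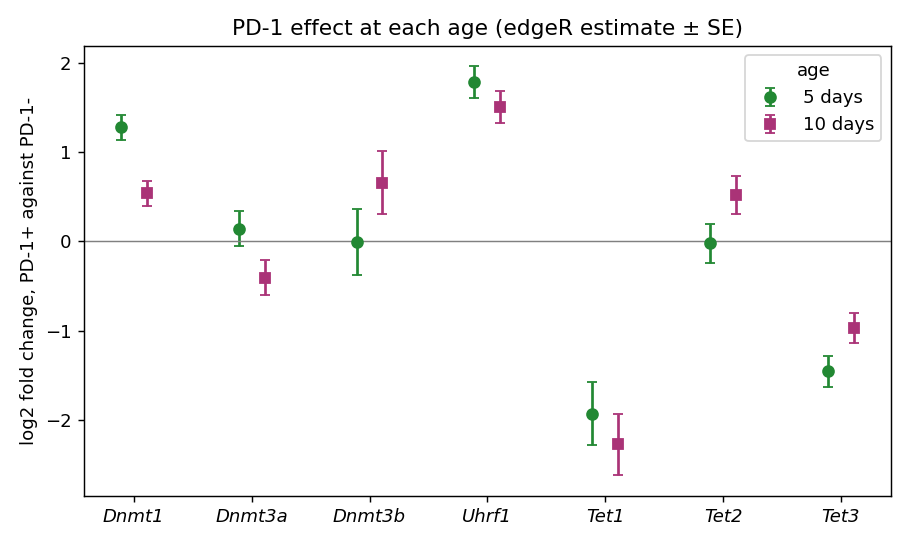
Log2 fold change of PD-1+ against PD-1- cells (y axis) for each member (x axis) at 5 days (circles) and 10 days (squares), as edgeR estimates with standard errors, 2 against 2 libraries each. Dnmt1 and Uhrf1 lie above 0 and Tet1 and Tet3 below it at both ages, while Dnmt3a, Dnmt3b and Tet2 lie near 0 at 5 days.

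The PD-1 comparisons at 5 and at 10 days use separate libraries and share 1 estimate of the spread. At 5 days 2 members were called higher and 2 lower, where 17.6% and 16.7% of all genes were, and at 10 days again 2 and 2, where 16.4% and 12.9% were. They were the same 4 members at both ages, Dnmt1 and Uhrf1 higher and Tet1 and Tet3 lower. Without overlap of the 2 against 2 libraries, 33.6% of all genes were higher and 35.1% lower at 5 days, and 33.5% and 31.3% at 10 days. The difference between the ages was called for none of the 7 members (edgeR, 2.12% of all genes called, 1.2% higher and 0.923% lower), and before adjustment 1 member, Dnmt1, passed 0.05 in edgeR. DESeq2 called 1 member there, also Dnmt1, as did edgeR with the replicate number as a block (edgeR adjusted p = 0.0448).

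With age, Dnmt1 and Uhrf1 fell within PD-1+ cells. From 5 to 10 days Uhrf1 fell by 0.86 ± 0.17 (edgeR adjusted p = 0.00281) and Dnmt1 by 0.61 ± 0.14 (edgeR adjusted p = 0.00802) on the log2 scale. These were 2 of 7 members called lower and 0 higher, where 6.98% and 7.39% of all genes were called. The libraries of the ages did not overlap for either gene, nor, in the other direction, for Dnmt3b, Tet2 and Tet3, as for 27.2% (lower) and 31.3% (higher) of all genes. The Dnmt1 call was lost without PD-1+ 5-day replicate 3 (-0.60) or without PD-1+ 10-day replicate 1 (-0.59). Tet2 and Tet3 differed by 0.49 ± 0.21 and 0.40 ± 0.17 and were not called (edgeR adjusted p = 0.138 and 0.135). Dnmt3b (0.58 ± 0.36), Dnmt3a (-0.013 ± 0.20) and Tet1 (-0.071 ± 0.38) were not called either.

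Within PD-1- cells no member was called between the ages, where 0.27% of all genes were. Before adjustment 2 members passed 0.05 in edgeR, Uhrf1 (-0.57 ± 0.18, edgeR adjusted p = 0.243) and Dnmt3a (0.54 ± 0.20, edgeR adjusted p = 0.316), and DESeq2 called none. The age comparisons use the same libraries as the PD-1 comparisons. In both populations the 5-day libraries include the male pair. Without that pair Uhrf1 was still called lower with age in PD-1+ cells, and Dnmt1 was at -0.60 (edgeR adjusted p = 0.0656).

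Levels of different genes can be set side by side per kilobase of exon, using all exon bases of a gene in GENCODE M21. In PD-1- cells the order was Dnmt1 (27.5 ± 1.83 CPM per kilobase, SD, n = 4), Uhrf1 (16.0 ± 4.197), Tet3 (15.1 ± 1.253), Dnmt3a (8.43 ± 2.20), Dnmt3b (4.34 ± 1.37), Tet2 (4.28 ± 0.383) and Tet1 (3.08 ± 0.458). The libraries of Uhrf1 and Tet3 overlap, as do those of Dnmt3b and Tet2, whereas Tet1 lies below Tet2 in all of them by a narrow margin (highest Tet1 3.71, lowest Tet2 3.74). In PD-1+ cells Dnmt1 (52.8 ± 12.9) and Uhrf1 (51.3 ± 17.3) led and overlapped. Dnmt3a (7.55 ± 0.986), Tet3 (6.59 ± 1.24), Dnmt3b (5.70 ± 1.64) and Tet2 (5.19 ± 1.17) followed, each overlapping its neighbour in that order, and Tet1 (0.713 ± 0.222) was below all others. Lengths matter to this order: with the longest coding transcript in place of all exons, Tet3 (23.2 CPM per kilobase) was above Uhrf1 (19.02) in PD-1- cells, and Tet2 was above Dnmt3b in both populations (7.87 against 5.13 in PD-1- and 9.54 against 6.74 in PD-1+ cells). This length was chosen after seeing the data. In PD-1+ cells Dnmt1 stood above 91.4% and Tet1 above 7.45% of 11288 tested genes with a length.

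The make-up of both enzyme families thus differed between the populations. Summed per kilobase, the 3 Tet genes reached 21.2 to 24.2 CPM in PD-1- and 9.06 to 14.7 CPM in PD-1+ libraries. Tet3 held 62.9 to 69.7% of that sum in PD-1- and 51.7 to 54.8% in PD-1+ libraries, and Tet2 held 17.0 to 20.7% and 39.7 to 44.1%. Tet1 made up 12.3 to 16.5% and 4.001 to 7.76%. The 3 Dnmt genes summed to 36.1 to 44.5 CPM per kilobase in PD-1- and 55.3 to 77.3 in PD-1+ libraries, of which Dnmt1 held 65.9 to 72.3% and 74.1 to 84.5%. Dnmt3a held 17.2 to 27.6% and 9.91 to 15.3%, and Dnmt3b 6.49 to 13.4% and 5.57 to 14.5%. Of these ranges only that of Dnmt3b overlapped between the populations. As single genes, 17.2% of all genes were higher and 17.5% lower without overlap, and no such share was computed for sums or parts of a sum. With the longest coding transcript as the length, Tet2 held 22.95% of the Tet sum in PD-1- and 46.6% in PD-1+ cells on average.

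**Figure D3:**
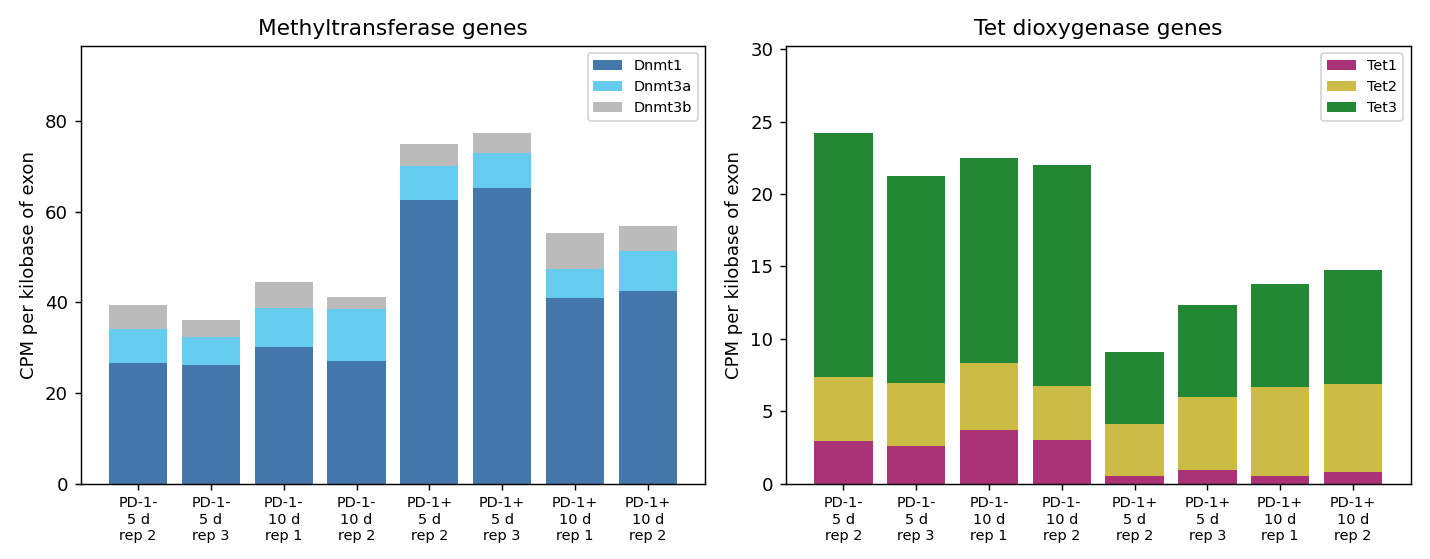
Stacked levels in CPM per kilobase of exon (y axis, from 0) of the 3 Dnmt genes (left) and the 3 Tet genes (right) in each of the 8 libraries (x axis). Dnmt bars are taller in PD-1+ libraries through Dnmt1, and Tet bars are shorter, with Tet2 a larger part of them.

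Ratios within a library, on which library scaling has almost no bearing, were tested for 5 pairs of quantities with an exact permutation test over the 8 libraries (two-sided, 4 against 4, where the smallest possible p is 0.0286). The log2 ratio of Tet2 to Tet3 CPM was -1.79 ± 0.197 in PD-1- and -0.337 ± 0.0941 in PD-1+ libraries (SD, n = 4 each), a difference of 1.46 (exact p = 0.0286, adjusted over the 5 pairs p = 0.0357). Dnmt3a relative to Dnmt1 went from -0.562 ± 0.342 to -1.60 ± 0.374, a difference of -1.04. Uhrf1 relative to Dnmt1 went from -1.60 ± 0.429 to -0.863 ± 0.167, a difference of 0.73. The exact p was 0.0286 for both, and their adjusted p was 0.0357. The ratios are made of the same values as the tests of single genes above, so they are not separate support for those. The permutations did not hold age fixed. With 1 library left out these 3 kept their direction, with an adjusted p from 0.0357 to 0.0714. It was above 0.05 in 7 of 8 such cases for Dnmt3a to Dnmt1, and in 4 of 8 for each of the other two. Libraries of the populations did not overlap in any of these 3 ratios, so the 2 genes of each pair differed between the populations to an unequal degree. For Uhrf1 to Dnmt1 the margin was narrow, with -1.076 in PD-1- 5-day replicate 3 and -1.059 in PD-1+ 10-day replicate 2. The share of all gene pairs that separate in this way was not computed, and of single genes 17.2% were higher and 17.5% lower without overlap.

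Transcripts of DNA replication rose alongside Uhrf1 and Dnmt1. Of 30 replication genes tested, 29 were higher in PD-1+ cells over both ages, 0 were lower and Cdt1, a licensing factor, was not called. Their median difference was 1.60, against -0.012 for all genes, of which 21.9% were called higher and 19.6% lower. The helicase subunits Mcm6 (2.10 ± 0.13), Mcm5 (2.13 ± 0.14) and Mcm3 (1.76 ± 0.16) and thymidine kinase Tk1 (2.26 ± 0.19) had the smallest p-values (edgeR adjusted p 1.42e-08 to 6.92e-07). From 5 to 10 days in PD-1+ cells 8 of the 30 were lower and 0 higher, with a median of -0.49. Of all genes 6.98% were lower and 7.39% higher in that comparison. Of 18 mitosis genes 14 were higher in PD-1+ cells over both ages. In the 10-day comparison 3 of the 18 were higher, a share close to the 16.4% of all genes, with a median of 0.61. With age in PD-1+ cells 9 of the 18 were lower and 0 higher, with a median of -0.98. Whether replication transcripts have a part in the differences of Uhrf1 and Dnmt1 was not tested.

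Set against the mean log2 CPM of the 30 replication genes in the same library, Uhrf1 stood 0.559 ± 0.230 above it in PD-1- and 0.692 ± 0.245 above it in PD-1+ cells (SD, n = 4 each). That difference of 0.13 was within the spread of both ages together (exact permutation p = 0.457, adjusted p = 0.457). At 5 days Uhrf1 stood 0.689 and 0.789 above the replication mean in PD-1- and 0.89 and 0.92 above it in PD-1+ libraries. At 10 days Uhrf1 stood 0.49 and 0.27 above it in PD-1- and 0.46 and 0.50 above it in PD-1+ libraries. Dnmt1 stood 2.15 ± 0.228 above the same mean in PD-1- and 1.56 ± 0.150 above it in PD-1+ cells. Its difference of -0.60 was larger than the spread (exact permutation p = 0.0286, adjusted p = 0.0357), with no overlap between libraries, and its adjusted p was above 0.05 in 4 of 8 cases with 1 library left out. Dnmt1 was thus higher in PD-1+ cells by less than the mean of the replication genes was, though not by less than each of them.

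**Figure D4:**
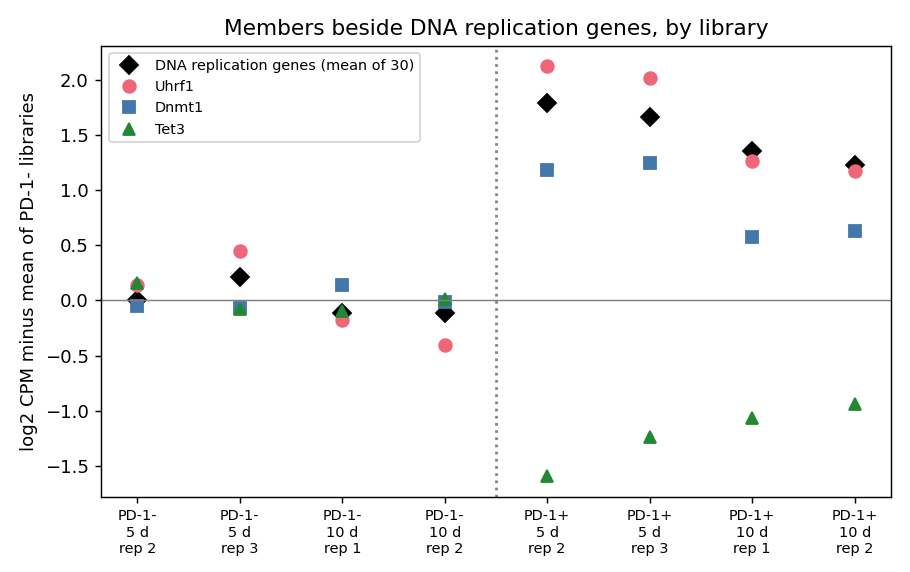
Log2 CPM minus the mean of the 4 PD-1- libraries (y axis) in each library (x axis) for Uhrf1, Dnmt1, Tet3 and the mean of 30 DNA replication genes. In PD-1+ libraries Uhrf1 lies near the replication mean, Dnmt1 below it but above 0, and Tet3 below 0.

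Partners of maintenance methylation were divided. Over both ages 21.9% of all genes were higher in PD-1+ cells and 19.6% lower. Of 10 partners tested, 4 were higher, 3 lower and 3 not called, with a median of 0.28. The higher ones were Hells (2.07 ± 0.20), a chromatin remodeller, its activator Cdca7 (1.82 ± 0.18), the DNA ligase Lig1 (1.93 ± 0.16) and the replication clamp Pcna (1.05 ± 0.14), which binds DNMT1 (edgeR adjusted p 3.24e-07 to 3.63e-05). The lower ones, named here after their values were seen, were the deubiquitinase Usp7 (-0.66 ± 0.16), the remodeller Atrx (-0.33 ± 0.12) and Smchd1 (-0.77 ± 0.13), a silencing factor of the inactive X. With any 1 library left out, 2 partners rather than 3 were called lower. Uhrf2, the relative of Uhrf1, was not called over both ages (0.34 ± 0.28) and was higher at 10 days (0.92 ± 0.28, edgeR adjusted p = 0.0219). Dnmt3l, the germline partner of the de novo enzymes, had 1 count in all 8 libraries together.

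Of 19 tested genes that act with or after the TET enzymes, 2 were higher, 3 lower and 14 not called over both ages, where 21.9% and 19.6% of all genes were higher and lower, with a median of 0.0022. At 5 days, where 17.6% of all genes were higher and 16.7% lower, 2 were higher and 5 lower. At 10 days, where 16.4% and 12.9% were, 2 were higher and 1 lower. Without PD-1+ 5-day replicate 3, 1 was called lower. Gadd45b, a stress gene linked to active demethylation, was higher by 2.62 ± 0.15, and Idh3a, a subunit of the enzyme that makes the TET cosubstrate alpha-ketoglutarate in the citric acid cycle, by 1.21 ± 0.13 (edgeR adjusted p = 5.19e-09 and 2.73e-06). Idh2, the mitochondrial NADP-dependent enzyme with the same product, was lower (-1.80 ± 0.15, edgeR adjusted p = 2.55e-07). Ogt, a sugar transferase that binds TET proteins, was lower over both ages (-0.47 ± 0.14, edgeR adjusted p = 0.0155), at -0.76 ± 0.14 at 5 days and -0.17 ± 0.14 at 10 days, where it was not called (edgeR adjusted p = 0.00049 and 0.383). Also lower was D2hgdh (-0.94 ± 0.29), which clears an inhibitory metabolite and was named after its value was seen. Tdg, the glycosylase that removes oxidised methylcytosine, had 128 counts in all 8 libraries and was not called (0.90 ± 0.42, edgeR adjusted p = 0.1).

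Among readers of CpG methylation and CXXC proteins, 2 of 12 were higher, 3 lower and 7 not called over both ages, a share called close to the 41.4% of all genes, with a median of -0.30. At 5 days, where 17.6% of all genes were higher and 16.7% lower, 1 was higher and 4 lower. At 10 days, where 16.4% and 12.9% were, 2 were higher and 0 lower. The higher count was 1 without PD-1- 5-day replicate 2, PD-1- 10-day replicate 1 or PD-1+ 10-day replicate 2, and the lower count was 1 without PD-1+ 5-day replicate 3. Kdm2b, a histone demethylase that binds unmethylated CpG, was higher (1.39 ± 0.18) and so was Mbd3 (0.65 ± 0.21), a subunit of the NuRD complex. Mbd5 (-0.73 ± 0.21), a protein of the methyl-CpG-binding domain family, was among the lower ones, as was Zbtb4 (-1.13 ± 0.39), named after its value was seen. Across these readers the edgeR adjusted p was 2.83e-05 for Kdm2b, 0.0113 for Mbd5, 0.0232 for Mbd3 and 0.0302 for Zbtb4.

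Of 16 genes of folate and methionine metabolism, which supply the methyl donor and thymidylate, 8 were higher, 2 lower and 6 not called over both ages. Of all genes 21.9% were higher and 19.6% lower. The median of the 16 genes was 0.56. The lower count was 1 without PD-1- 5-day replicate 2, either PD-1+ 5-day library or PD-1+ 10-day replicate 2. Among the higher ones were Tyms (1.64 ± 0.20), the thymidylate synthase, and the mitochondrial folate enzymes Mthfd1l (1.01 ± 0.17) and Mthfd2 (0.99 ± 0.16), with edgeR adjusted p from 1.46e-05 to 0.000194. Mat2a, which makes the methyl donor itself, was not called over both ages (0.26 ± 0.15), and its regulatory subunit Mat2b was lower (-0.43 ± 0.14), as was Ahcyl2 (-1.03 ± 0.20), all 3 named after their values were seen. Of 14 germline genes that DNA methylation is known to silence in somatic cells, none had enough counts to be tested. They summed to 34 counts in the 4 PD-1- and 28 in the 4 PD-1+ libraries, and Mael and Rhox5 had 0.

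**Figure D5:**
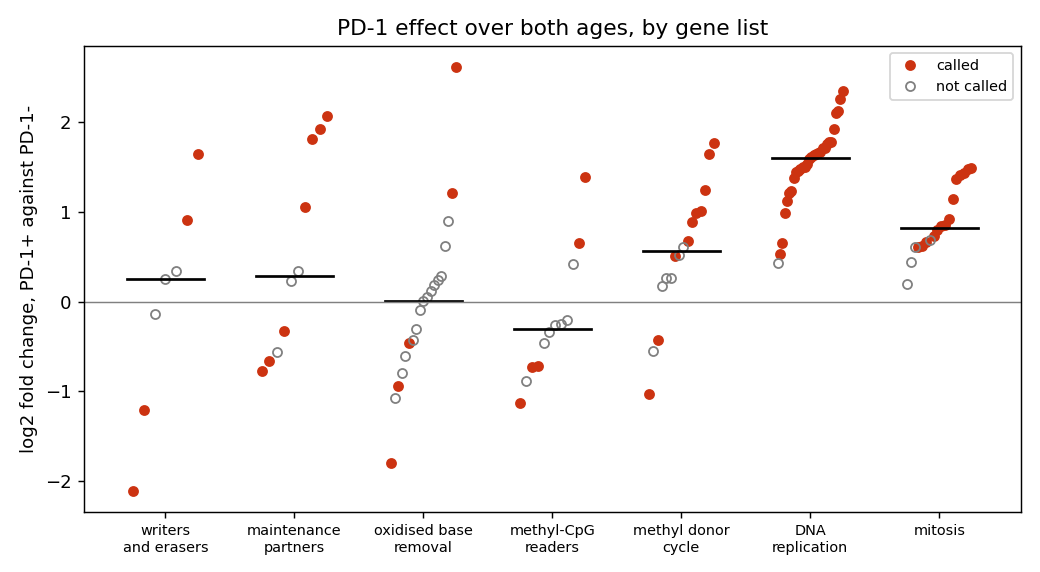
Log2 fold change of PD-1+ against PD-1- cells over both ages (y axis) for every tested gene of each list (x axis), sorted within a list; filled points are called, open points are not, and bars are medians. Replication genes lie above 0 with a median of 1.60, while the members and the reader genes lie on both sides of 0.

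The genes whose log2 CPM was most like that of a member over the 8 libraries were ranked by Pearson's r, given as a description since the libraries fall into 2 populations. For Uhrf1 they included Xpnpep1 and Il18r1 (r = 0.993 each), and for Dnmt1 Gpi1 (0.99), Cldnd1 and Hpf1 (0.989 each). For Tet1 they were Zbtb2 (0.996), Tgfbr3 (0.995) and Il6ra (0.99), and for Tet3 Akap13 and Ppcdc (0.997 each) and Sipa1l1 (0.993). The members that were not called had less similar neighbours, with r of 0.965 for Zfp36l2, 0.9 for Gm37409 and 0.884 for Rexo1 beside Dnmt3a. Beside Tet2 they were AC120347.2 (0.959), Zswim4 (0.95) and Gm42671 (0.949), and beside Dnmt3b Scrn3 (0.948), Zfp119a and AC160405.2 (0.936 each).

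Transcripts of other cells were low but differed between the populations, and their part in the member differences was not tested. Bulk values cannot tell fewer cells of a type from less RNA per cell. Of 4 hepatocyte markers tested 3 were higher in PD-1+ cells, and the 8 markers summed to 11.1 to 20.9 CPM of library totals in PD-1- and 25.4 to 69.5 in PD-1+ libraries. The 8 markers of haematopoietic progenitors, which are common in the neonatal liver, summed to 5.30 to 8.61 and 3.16 to 7.19 CPM, with 0 to 5 counts of Kit or Cd34 per library. Erythroid markers reached 11.5 to 30.5 and 2.71 to 5.63 CPM, with 162 counts of Gata1 in PD-1- and 11 in PD-1+ libraries and 0 to 2 counts of Hba-a1 per library. B cell markers summed to 556 to 676 and 267 to 312 CPM, nearly all from Ighm, and endothelial and stromal markers to 309 to 386 and 99.5 to 135 CPM, nearly all from Pecam1. Macrophage markers summed to 29.1 to 70.9 and 26.6 to 49.2 CPM. Cd68 had fewer counts in PD-1+ libraries (288 and 194), and every other macrophage marker had more, as Clec4f (5 and 33). Dendritic cell markers summed to 9.6 to 23.3 and 28.0 to 73.5 CPM, mostly from Xcr1 in PD-1+ libraries (9 and 328 counts). Siglech (34 and 1) and Flt3 (20 and 8) went the other way. NK and innate lymphoid markers summed to 1.66 to 22.2 and 0.451 to 5.28 CPM, while Eomes (4 and 23 counts) and Klra8 (0 and 1) went the other way. CD8 genes summed to 30 to 48.7 and 5.42 to 27.1 CPM, but went opposite ways. Cd8b1 had 326 counts in PD-1- and 100 in PD-1+ libraries, and Cd8a had 33 and 63. Neutrophil markers summed to at most 3.17 CPM in any library. No marker of any list was at 0 in all 8 libraries. The 6 T cell markers summed to 4240 to 4820 and 3490 to 6640 CPM, and none of them was called.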

How the data were processed

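RNA was sequenced from sorted liver CD4+ T cells, 8 libraries in 4 groups named by the sample titles. The authors deposited raw counts per gene symbol; per the submitters' processing notes STAR 2.5.4, featureCounts and mm10 were used. The sources used here do not give the annotation, strand setting or handling of multi-mapping reads. Without a stated strand, reads of overlapping antisense genes cannot be told apart. Symbols were kept by filterByExpr (11490 of 52997), scaled by TMM and tested with edgeR 4.0.16 (R 4.3.3), with age and PD-1 as additive terms for the effect over both ages and with 4 group means otherwise, and the procedure was tested on simulated data. Standard errors are |log2 fold change| over the square root of F. Log2 CPM values used a prior count of 2. The replicate numbers were not used as a pairing in the main fits. Deviations of same-numbered libraries from their group means correlated at 0.0938 (5 days) and 0.114 (10 days). With 2 libraries per group these values cannot show whether same-numbered libraries came from the same mice. At 5 days same-numbered libraries had the same sex. The members and lists were chosen with earlier results of these data known. Named genes were all members, up to 4 genes per list with the smallest p, and the 3 genes most like each member; Uhrf2, Tdg, Dnmt3l and the genes marked in the text were added later, and some genes that the rule names are not reported here. Alternatives were other scalings, no filter, DESeq2 1.42.0, a block and left-out libraries. Lengths and positions are from GENCODE M21, promoter sequences from RefSeq (GRCm38.p6).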

Additional observations from a re-analysis of the deposited data

Results flagged for a closer look

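No value of the 7 members stood apart from its population by Dixon's test of the 4 libraries of a population, both ages together. In the main edgeR fit no member differed in its PD-1 effect between the ages at an adjusted p below 0.05. DESeq2 and an edgeR fit with the replicate number as a block called Dnmt1 there. Among other named genes, PD-1- 10-day replicate 2, the library with the smallest total, was low for 2 genes. Mcm3 was at 107.3 CPM there and at 170.7 to 172.1 CPM in the other PD-1- libraries, a gap of 0.979 of the whole range. Mthfd2 was at 68.95 CPM there and at 102.8 to 109.1 CPM in the others, a gap of 0.842 of the range. Chance alone flags about 1 in 20 such groups.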

How the results depend on the processing

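Over both ages and at 5 days, Dnmt1, Uhrf1, Tet1 and Tet3 kept their direction and their call under every scaling, filter, tool, block and left-out library tried. A fit with the replicate number as a block (possible for PD-1 effects, since the numbers are nested in age) changed no member's call except that of Dnmt1 in the difference between the ages (-0.74, edgeR adjusted p = 0.0448, 1 member lower), where it called 483 genes in place of 244, and it put Dnmt3b at 5 days at 0.019. DESeq2 called Dnmt1 there too (-0.78, DESeq2 adjusted p = 0.0372, 1 member lower). The cause of these changes was not tested.

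Members that were not called changed sign as follows. With DESeq2's size factors Dnmt3b and Tet2 at 5 days were at 0.021 and 0.0045, and with DESeq2 at 0.035 and 0.011. Without a filter Dnmt3a with age in PD-1+ cells was at 0.055. The count of genes called with age in PD-1- cells (31) was 180 without a filter and 74 with DESeq2, and that of the difference between the ages was 469 without a filter. Without both male libraries the counts were 2561 for PD-1 at 5 days, 89 for age in PD-1- cells and 148 for the difference between the ages, with 1 member lower with age in PD-1+ cells, and Tet1 was at 0.46 (age, PD-1+) and 0.26 (difference between the ages). The ratios were then 0.89 (Uhrf1 to Dnmt1), -1.049 (Dnmt3a to Dnmt1), 1.49 (Tet2 to Tet3) and -0.76 (Dnmt1 to replication), with exact permutation p adjusted to 0.125, since fewer libraries allow no smaller value.

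With 1 library left out, which leaves a group with a lone library that is assumed to vary like the others, genes called ranged from 2328 to 3951 (PD-1 at 5 days), 2195 to 3527 (PD-1 at 10 days), 5 to 90 (age, PD-1-), 550 to 1839 (age, PD-1+) and 92 to 282 (difference between the ages). The lowest counts came without PD-1+ 5-day replicate 2, PD-1- 10-day replicate 1, PD-1- 10-day replicate 2, PD-1+ 5-day replicate 2 and again PD-1+ 5-day replicate 2. Members called higher at 10 days ranged from 1 to 3, and lower with age in PD-1+ cells from 1 to 2. Log2 differences that changed sign ranged from -0.24 to 0.015 (Dnmt3a, both ages), -0.20 to 0.27 (Dnmt3b, 5 days), -0.24 to 0.24 (Tet2, 5 days), -0.78 to 0.31 (Dnmt3b, age, PD-1-), -0.23 to 0.094 (Tet2, age, PD-1-), -0.19 to 0.041 (Tet3, age, PD-1-), -0.26 to 0.20 (Dnmt3a, age, PD-1+), -0.48 to 0.46 (Tet1, age, PD-1+) and -0.77 to 0.17 (Tet1, difference between the ages). The ratios ranged from 0.60 to 0.90 (Uhrf1 to Dnmt1), -1.21 to -0.88 (Dnmt3a to Dnmt1), 1.39 to 1.53 (Tet2 to Tet3) and -0.70 to -0.52 (Dnmt1 to replication). Alternatives for members outside the filter were not run, since all 7 passed it. Depth limits Tet1 and Dnmt3b most, with 15 to 177 and 21 to 115 counts per library.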
